A study of Mus musculus with 6 samples.

Results

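Sphingosine-1-phosphate (S1P) is a lipid signal made inside cells from sphingosine, carried out by dedicated exporters and read by G protein-coupled receptors. The 9 genes described here encode its kinases (Sphk1, Sphk2), a phosphatase and a lyase that remove it (Sgpp1, Sgpl1), its exporters (Mfsd2b, Spns2) and the receptors S1pr1, S1pr2 and S1pr4. In haematopoietic stem and progenitor cells (HSPCs) they were read by 16 probe sets, each assigned to exactly 1 of these symbols, of 45037 probe sets and 18193 genes tested. The set was chosen by the higher signal of Mfsd2b in Med12 knockouts, in the same contrast that is described here, so the members' differences are a description and are given with their standard errors and no p-value.

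The cells were lineage-negative, c-Kit-positive and Sca1-positive bone marrow cells sorted from B6/129 mice, with 3 arrays of control HSPCs and 3 arrays of Med12 knockout HSPCs. Knockout mice were Med12Flox;MxCre, in which an interferon-inducible Cre, active in blood cells and other tissues, deletes the gene for a kinase module subunit of Mediator. All mice were sampled on day 4 after pI:pC, a double-stranded RNA that induces interferon. The labels give no genotype for the controls and do not say whether they carried MxCre, or whether each array came from a separate animal, so the errors measure the spread between these samples, which may be technical.

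As background, S1P is abundant in blood and lymph and low inside tissues, and this gradient guides lymphocytes and blood progenitors out of marrow and lymphoid organs. Red cells and platelets release S1P through Mfsd2b, and endothelial cells release it through Spns2. The lyase ends the pathway by splitting S1P irreversibly, whereas the phosphatase returns it to sphingosine, which can be phosphorylated again.

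Among the 9 genes, the exporter gene Mfsd2b rose and the lyase gene Sgpl1 fell in Med12 knockouts, the only 2 genes to pass limma's adjusted threshold of 0.05, which 0.989% of all genes passed. The phosphatase gene Sgpp1 and the receptor gene S1pr1 had higher signal on all 3 knockout arrays than on any control array but did not pass. By probe set, 1 rose, 2 fell and 13 did not pass, against 0.762% called among all probe sets. The knockout and control arrays did not overlap for 4 of 9 genes (23.4% of all genes) and 6 of 16 probe sets (20.9% of all probe sets). Since that contrast chose the set, nothing is read from these shares. The members' median log2 difference was 0.09, beside -0.05 over all genes. Signals are linear units as deposited, and log2 differences are of the signal plus 16, which understates the change of dim genes.

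**Figure D1:**
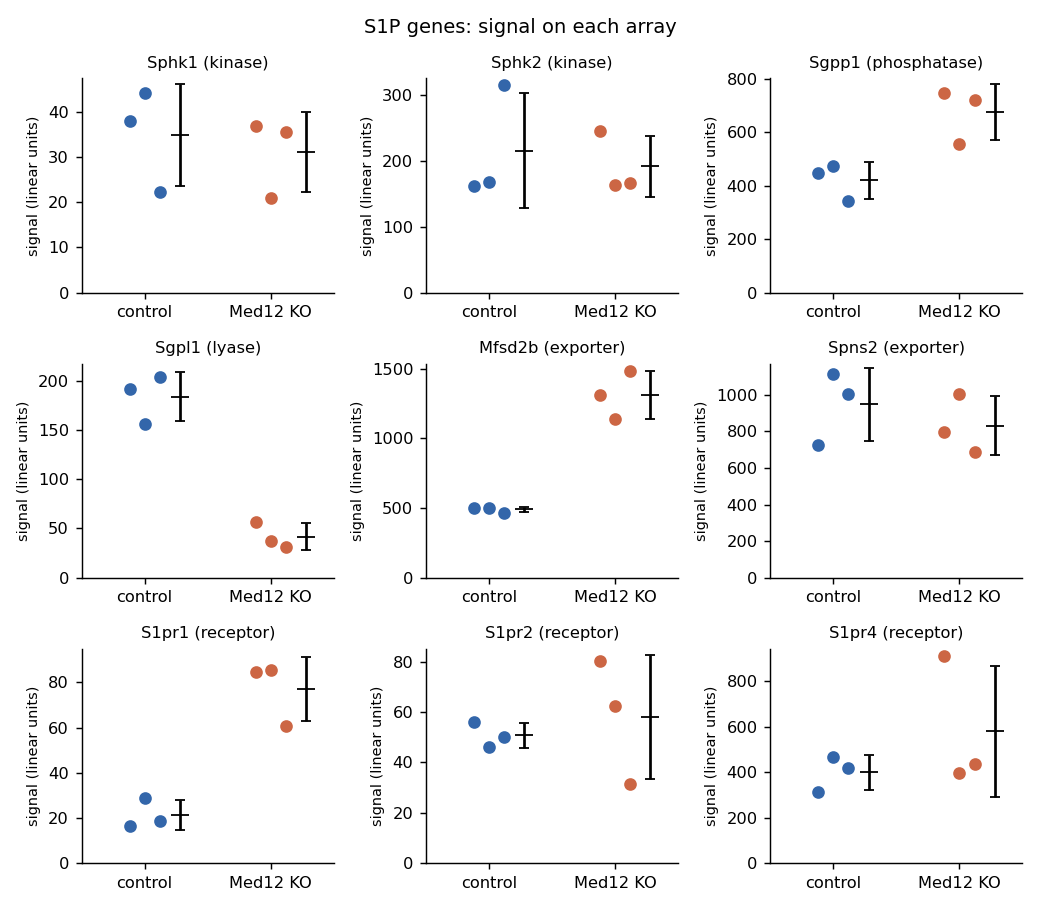
Signal on each array (vertical axes, linear units from 0) for the probe set of highest mean of each of the 9 S1P genes, in 3 control (blue) and 3 Med12 KO (orange) arrays; the bars beside the points give mean ± SD. Sgpp1, Mfsd2b and S1pr1 lie higher and Sgpl1 lies lower on every knockout array, and the groups overlap for the other 5 genes.

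The sequences before the start of Mfsd2b, Sgpl1 and Sgpp1 are shown because these 3 genes, with S1pr1, had non-overlapping groups. Each line gives 250 bases ending at the base before the RefSeq transcript start (GRCm38.p6, minus strand, 5′ to 3′), with matches to CCNCNCCC, the CACCC-type motif of erythroid KLF factors, in capitals on either strand. The positions are chr12:4874360-4874609, chr10:61147685-61147934 and chr12:75735730-75735979 in that order.
Mfsd2b: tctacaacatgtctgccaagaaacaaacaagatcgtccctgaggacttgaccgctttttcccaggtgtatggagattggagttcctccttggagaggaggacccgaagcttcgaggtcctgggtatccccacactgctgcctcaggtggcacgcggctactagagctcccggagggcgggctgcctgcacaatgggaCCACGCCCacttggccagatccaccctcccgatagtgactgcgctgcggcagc
Sgpl1: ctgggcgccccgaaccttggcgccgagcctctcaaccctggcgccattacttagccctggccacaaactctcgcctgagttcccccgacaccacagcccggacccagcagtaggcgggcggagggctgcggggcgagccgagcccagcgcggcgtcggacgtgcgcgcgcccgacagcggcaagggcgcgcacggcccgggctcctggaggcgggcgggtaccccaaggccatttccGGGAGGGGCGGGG
Sgpp1: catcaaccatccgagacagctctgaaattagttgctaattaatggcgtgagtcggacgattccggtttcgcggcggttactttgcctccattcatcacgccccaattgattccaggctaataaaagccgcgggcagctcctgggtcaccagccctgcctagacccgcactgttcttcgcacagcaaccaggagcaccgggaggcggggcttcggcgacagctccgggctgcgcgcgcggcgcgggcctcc

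Mfsd2b holds 1 match before the start, at bases -53 to -46. Sgpl1 holds a pair of overlapping matches on the opposite strand, at -13 to -6 and -8 to -1, and Sgpp1 holds none before its start. Windows of 300 bases also take in the first 50 transcribed bases. There, matches lay at bases 43 to 50 in Mfsd2b, 3 to 10 in Sgpl1 and 14 to 21 in Sgpp1. A match was present in 49.5% of 32851 windows in RefSeq. Of the 8 members that matched an entry, 6 had a match in at least 1 window. That count is per gene, and Sphk1 had 5 windows and Sphk2 had 2, so it is not comparable with the share per window. GATA factor motifs, spelled GATA with A or T before it and A or G after it, were found on either strand in 29.8% of all windows. Among members they were found for Spns2, in its 1 window, and for Sphk1, in 2 of its 5 windows. The letters of these motifs are not in the Mfsd2b, Sgpl1 or Sgpp1 window. No match of the GATA motifs overlapped one of CCNCNCCC in a member's window (0 windows).

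The sphingosine kinase genes, whose products make S1P, showed overlapping groups in all 4 of their probe sets. The brighter Sphk2 probe set had signals of 161.3, 167.7 and 315.4 in controls and 245.3, 163.2 and 166.7 in knockouts. The single high control array and the single high knockout array left the groups intermixed. Its log2 difference was -0.11 (SE 0.30), with a 95% interval from -0.85 to 0.62. The other Sphk2 probe set differed by -0.14 (SE 0.21). Sphk1 had signals of 37.9, 44.2 and 22.3 in controls and 36.8, 21.0 and 35.6 in knockouts, a log2 difference of -0.10 (SE 0.24; 95% interval -0.68 to 0.48). Its other probe set stayed between 0.5 and 4.3 on all 6 arrays, too dim to carry a difference. The Sphk1 and Sphk2 intervals, from 3 arrays per group, give the precision of the differences and are not limits of detection. In the simulated data described with the processing, 6% of log2 changes of 1 and 0% of changes of -1 passed the threshold. The sign of the Sphk1 and Sphk2 differences turned to 0.17 and 0.16 when each array was centred on its median, a scaling that raised the median difference over all genes by 0.27.

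Sgpl1, the S1P lyase gene, fell on both of its probe sets. The brighter had signals of 191.5, 156.3 and 203.5 in controls and 56.8, 37.1 and 31.7 in knockouts. Every knockout array lay below every control array, and the mean signal went from 184 ± 24.5 to 41.9 ± 13.2 (SD, n = 3 each), 4.39-fold lower. The log2 difference was -1.80 (SE 0.20). The other probe set had signals of 146.6, 118.0 and 119.5 in controls and 21.5, 3.4 and 6.0 in knockouts, a log2 difference of -2.51 (SE 0.27). Both probe sets were read on the same arrays, so they are no separate replicates. The direction was negative in every setting tried, with the brighter probe set at -1.23 when 64 was added before the log2 and -1.53 after median centring. Sgpl1 stayed past the threshold under each change of offset, scaling, filter or variance prior. It passed in no fit with an array left out or with the replicate block.

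Sgpp1, the S1P phosphatase gene, was read by 3 probe sets that did not share a direction. The brightest had signals of 446.0, 474.2 and 341.3 in controls and 748.3, 554.5 and 721.1 in knockouts. All knockout values lay above the controls, with means of 420.5 ± 70.0 and 675 ± 105 (SD, n = 3 each) and a log2 difference of 0.66 (SE 0.19). The next had signals of 479.3, 404.9 and 234.0 in controls and 651.5, 581.3 and 745.8 in knockouts, again without overlap, and differed by 0.85 (SE 0.28). The dimmest, an x-type probe set whose probes can also bind other transcripts, ran from 57.7 to 102.8 for control arrays and from 57.0 to 69.7 for knockout arrays (log2 -0.24; SE 0.20). None of the 3 passed. Averaged over its probe sets, Sgpp1 differed by 0.42.

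Mfsd2b, the exporter gene of red cells and platelets whose rise chose the set, had signals of 500.3, 503.5 and 467.9 in controls. On the knockout arrays they were 1313.1, 1138.7 and 1485.4, with no overlap. The mean signal went from 491 ± 19.7 to 1312 ± 173 (SD, n = 3 each), 2.68-fold higher, and the log2 difference was 1.38 (SE 0.14). With 1 array left out at a time it stayed between 1.29 and 1.48, but in none of these fits did it pass the threshold. It also missed the threshold when 4 rather than 16 was added before the log2, and with the replicate block. The other Mfsd2b probe set was dim and overlapped between groups, with signals of 26.1, 27.5 and 50.1 in controls and 50.4, 110.1 and 29.9 in knockouts (log2 0.56; SE 0.40). The mean of both probe sets gave 0.97.

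Spns2, the exporter gene of endothelial cells, had signals of 727.2, 1111.2 and 1005.3 in controls and 796.0, 1005.2 and 688.3 in knockouts. The groups overlapped, and the log2 difference was -0.18 (SE 0.22; 95% interval -0.73 to 0.36), or 0.09 after median centring. Of the 9 endothelial genes listed, 0 passed limma's test (4 had an unadjusted p under 0.05, beside 18.2% of all genes). Their levels were mixed: the endothelial cadherin gene Cdh5 was under 16 on all 6 arrays, while Egfl7 ran from 503.7 to 783.4 and Pecam1 from 416.5 to 498.6 in controls. Pecam1 was lower on all knockout arrays (log2 -1.24). Tek and Plvap, the latter named after its values were seen, were higher on all of them, and none of these genes passed. The log2 difference was negative for 7 of the 9 endothelial genes, beside 10515 of all 18193 genes. The exporter genes were not set against each other by level, because a probe set's signal depends on its own probes.

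**Figure D2:**
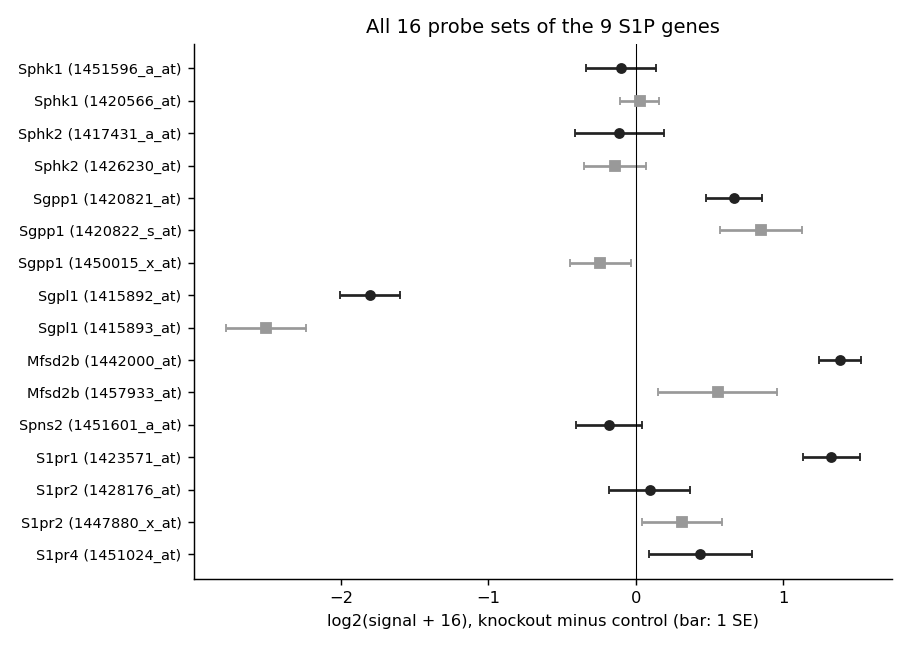
Log2 difference in signal plus 16, knockout minus control (horizontal axis), for all 16 probe sets of the 9 S1P genes, with bars of 1 SE; black circles mark the probe set of highest mean of each gene and grey squares the others. Both Sgpl1 probe sets lie at -1.80 and -2.51, the brighter Mfsd2b probe set at 1.38 and S1pr1 at 1.33, while the 3 Sgpp1 probe sets do not share a sign.

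S1pr1, the receptor through which lymphocytes sense S1P when they leave lymphoid organs, had low signals of 16.2, 28.8 and 18.6 in controls. In knockouts they were 84.7, 85.6 and 60.8, all above the control range. The mean went from 21.2 ± 6.69 to 77.0 ± 14.1 (SD, n = 3 each), 3.63-fold higher on the linear scale. The log2 difference was 1.33 (SE 0.19) and did not pass, and it depended on the number added before the log2: 1.70 with 4 and 0.73 with 64. S1pr1 passed after median centring (1.60), after quantile normalization (1.55), without the dimmer 50% of probe sets (1.33) and when each gene's probe sets were averaged. It was read by a single probe set. The filter on dim probe sets and the averaging left its difference unchanged, and fewer probe sets or genes were tested there.

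S1pr2, a receptor that can oppose migration, had signals of 56.0, 46.1 and 50.1 in controls and 80.1, 62.4 and 31.5 in knockouts. The knockout arrays lay on both sides of the controls, and the log2 difference was 0.09 (SE 0.27; 95% interval -0.58 to 0.76). Its other probe set differed by 0.31 (SE 0.27). S1pr4, a receptor found mainly on blood cells, had signals of 313.4, 465.7 and 418.9 in controls and 912.6, 394.0 and 433.6 in knockouts. Knockout replicate 1 stood alone above the other 5 arrays. The log2 difference of 0.44 (SE 0.35; 95% interval -0.42 to 1.29) fell to 0.07 without that array.

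**Figure D3:**
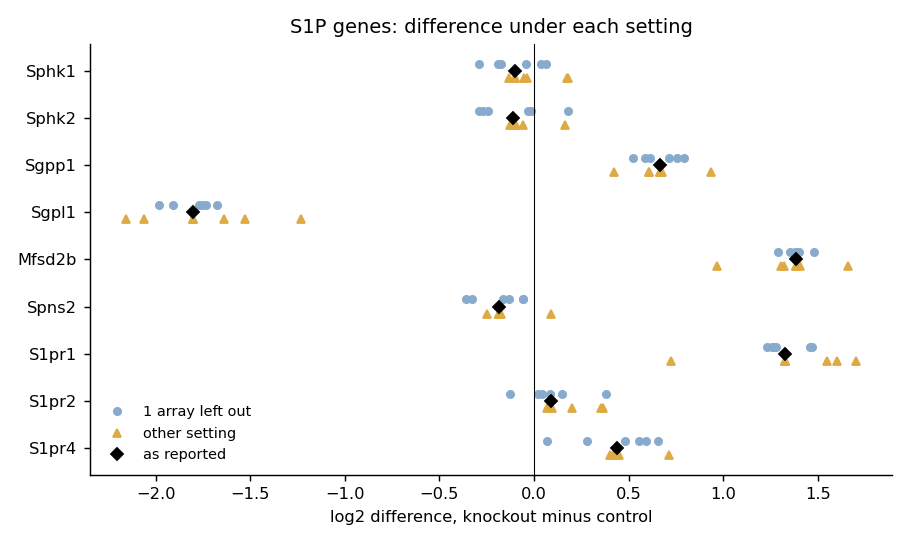
Log2 difference, knockout minus control (horizontal axis), of each S1P gene as reported (black diamonds), with 1 array left out (blue circles) and under the other settings (orange triangles). Mfsd2b, S1pr1 and Sgpp1 stay above 0 and Sgpl1 below 0 throughout, S1pr4 falls as low as 0.07, and Sphk1, Sphk2, Spns2 and S1pr2 cross 0.

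S1pr1 was the member whose 6 values lay closest to those of Mfsd2b, at a Euclidean distance of 0.66 between log2 values centred on each gene's mean, followed by Sgpp1 at 0.94. Of the other 18192 genes, the 5 nearest to Mfsd2b over these 6 arrays were Ska1 (0.22), a kinetochore gene, Pus7 (0.24), a pseudouridine synthase gene, Prkaa1 (0.28), a catalytic subunit of AMP kinase, Dazap1 (0.29), an RNA-binding protein gene, and 4933404O12Rik (0.29). Their log2 differences ran from 1.19 to 1.37. This likeness was searched for over 6 arrays that fall into 2 groups, and it describes these arrays only.

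Signals of marker genes of several blood lineages differed between the same arrays, where 0.352% of all genes rose and 0.638% fell in limma's test. Of 14 erythroid genes 6 rose and 0 fell, and their summed signal was 3948 to 4477 for control arrays and 9490 to 15648 for knockout arrays. The carbonic anhydrase gene Car1 rose by 1.76 (log2; adjusted p = 0.0405). Car2 (0.47) and the transferrin receptor gene Tfrc (1.08) did not pass, and the alpha-globin gene Hba-a1 was under 16 on every array. Of the 14 erythroid genes 13 had a positive log2 difference, beside 7678 of all 18193 genes. The exception, the anion exchanger gene Slc4a1, named after its values were seen, was lower on all knockout arrays (-1.60) and did not pass. Of 12 megakaryocyte and platelet genes 1 rose, Itga2b (1.56; adjusted p = 0.0431 by limma), with summed signals of 3706 to 5690 and 6337 to 8495. Pf4 (0.10) and Itgb3 (0.73) did not pass, and Gp6 was under 16 throughout. Of 9 mast cell and basophil genes 1 rose (sums of 1405 to 1821 and 2424 to 2750). Of 7 early lymphoid genes 4 fell (3865 to 4965 and 83.4 to 217), and all 6 granulocyte-monocyte genes fell (7883 to 14747 and 555 to 1377). The 9 endothelial genes had sums of 1469 to 1581 for control arrays and 1078 to 1139 for knockout arrays, with Egfl7 at -0.60, Pecam1 at -1.24 and Tek at 1.35. In bulk samples such as these, fewer cells of a type and less RNA per cell cannot be told apart, and the part of these markers in the S1P gene differences was not tested.

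Med12 itself had signals of 278.6, 837.4 and 441.6 in controls and 89.1, 100.4 and 86.4 in knockouts, read by 1 probe set, and whether its probes fall in the deleted stretch was not tested. Its groups did not overlap, and the log2 difference of -2.17 (SE 0.38) did not pass (adjusted p = 0.0796 by limma). Kit, the c-Kit gene of the sort gate, had signals of 805.2 to 1425.4 and 514.8 to 617.5, which did not pass, and its other probe set fell (limma adjusted p = 0.0479). The 4 measured genes of the lineage markers did not exceed 114.6, the highest value being that of Itgam. Median signals per array were 26.7 to 26.9 for controls and 16.6 to 21.3 for knockouts. The share of calls that were higher in knockouts was 28.9% of 343 probe sets, or 62.2% of 693 after median centring and 43.0% of 251 after quantile normalization.

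In the wider sphingolipid pathway, Abca1 fell and none of the other 57 measured genes passed. Of 63 listed genes 58 were measured, so 1 fell and 0 rose in limma's test, beside 0.638% of all genes lower and 0.352% higher; 17 of the 58 had an unadjusted p under 0.05, beside 18.2% of all genes. Their median log2 difference was -0.19, beside -0.05 over all genes. The groups did not overlap for 19 of the 58, beside 23.4% of all genes. Abca1, a lipid exporter of the cholesterol pathway that has also been linked to S1P release, had signals of 255.1, 178.9 and 189.1 in controls and 53.8, 40.0 and 34.7 in knockouts. All knockout arrays were lower, with a log2 difference of -1.92 (SE 0.20; adjusted p = 0.0314 by limma). A further Abca1 probe set also fell (-1.51; adjusted p = 0.0407 by limma), and the dimmest was at -0.70 with overlap. The Abca1 call was lost when any array was left out (adjusted p = 0.0757 to 0.121 by limma).

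The further receptor gene S1pr3 had the most negative difference of the list. Its brightest probe set had signals of 435.1, 121.7 and 111.6 in controls and 1.1, 41.7 and 1.4 in knockouts, and the log2 difference of -2.95 (SE 0.69) did not pass (adjusted p = 0.128 by limma). The knockout arrays were below the controls on all 3 S1pr3 probe sets, the others differing by -1.75 and -1.19, and none passed. S1pr3 did pass without the dimmer 50% of probe sets (adjusted p = 0.0449 by limma). Gnaq, a G protein subunit used by some S1P receptors, was at -0.79 (adjusted p = 0.121 by limma). Of its 7 probe sets the dimmest was positive (0.43, with overlap), and the others ran from -1.04 to -0.12. Of the 16 receptor and signalling genes 0 passed limma's test, and 4 had an unadjusted p under 0.05 (18.2% of all genes).

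Of the 5 ceramidase genes, whose products free the sphingosine that the kinases use, 0 passed limma's test and 2 had an unadjusted p under 0.05, a limit that 18.2% of all genes met. The acid ceramidase gene Asah1 had signals of 1033.7, 769.5 and 851.4 in controls and 475.2, 375.2 and 515.9 in knockouts, without overlap (log2 -0.94; SE 0.18; adjusted p = 0.0949 by limma). Acer2, the Golgi alkaline ceramidase gene, was at -0.39 (adjusted p = 0.195 by limma). Of 14 genes of ceramide synthesis 0 passed limma's test (3 at an unadjusted p under 0.05), and the ceramide synthase genes Cers2 and Cers5 were at 0.44 and -0.76. Among 11 genes that exchange ceramide with sphingomyelin and glycosphingolipids, the acid sphingomyelinase gene Smpd1 was at 0.65 and the glucosylceramide synthase gene Ugcg at 0.73, and 0 passed limma's test (5 at an unadjusted p under 0.05). Of 5 other genes of S1P removal 0 passed, also at an unadjusted p under 0.05 (0), with the lipid phosphatase gene Plpp2 at -0.80 and Aldh3a2, which oxidises the aldehyde left by the lyase, at -0.23.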

How the data were processed

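Sorted HSPC RNA (5 ng) was NuGEN Ovation amplified, biotin-labelled and hybridised to arrays, per the labels' protocols. The authors deposited 1 linear signal intensity per probe set and array for 6 arrays, and all 6 value columns were used (0 left out). The submitters' processing notes name RMA, but RMA gives log2 values, and these are linear with zeros and a trimmed mean of 150 on every array, so the method that made them is not given in the sources used here. Control probe sets (64) were left out and 45037 tested. Of these, 34945 had 1 symbol in the platform annotation of 2016, 932 several and 9160 none. The probe set of highest mean signal stood for a gene.

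The groups were compared on log2(signal + 16) by a linear model with empirical Bayes moderation (lmFit, then eBayes; limma 3.58.1, R 4.3.3). The test was two-sided with Benjamini-Hochberg adjustment over all probe sets and a threshold of 0.05. The code was tested on simulated data in which 200 of 45037 probe sets were changed. Of log2 changes of 1 and -1, 6% and 0% passed the threshold, and of 2 and -2, 82% and 70%. The simulated noise was independent between probe sets, and fewer probe sets were changed than the 343 that passed in the data. These rates are therefore only a guide to recovery in the data. Not passing does not mean that a gene did not change. No filter on low values was applied. The number of arrays limits the precision. Members, lists and settings were chosen with earlier results of these data known. The text names all members, Med12, Kit, and wider-pathway genes past the threshold or else the 2 of smallest unadjusted p per group. It also names the 3 brightest genes of 3 marker lists and the 5 genes nearest to Mfsd2b. Hba-a1, Gp6, Cdh5, Itgam, Plvap, Slc4a1 and the genes under other observations were named with their values seen. Promoter sequences are from RefSeq, GRCm38.p6, with entries for 8 of the 9 members. Alternatives were other offsets, median centring, quantile normalization, a filter on dim probe sets, another variance prior, a replicate block, leaving out each array, and averaging a gene's probe sets.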

Additional observations from a re-analysis of the deposited data

How the results depend on the processing

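Mfsd2b, S1pr1, Sgpp1 and S1pr4 kept a positive and Sgpl1 a negative difference in all 14 alternatives, with ranges of 0.97 to 1.66, 0.73 to 1.70, 0.42 to 0.94, 0.07 to 0.71 and -2.16 to -1.23. The sign turned in 4 alternatives for Sphk1, 2 for Sphk2 and 1 each for Spns2 and S1pr2. The calls were less stable than the differences. With 1 array left out, 0 to 10 probe sets passed limma's test, and the count was 0 both for the member genes and for the wider list. Those fits had 5340 to 7141 of 45037 probe sets and 11 to 17 of 58 wider-list genes at a limma unadjusted p under 0.05. With the replicate number as a block 0 probe sets, 0 members and 0 wider-list genes passed. There, 6752 of 45037 probe sets and 15 of 58 wider-list genes had a limma unadjusted p under 0.05. Same-numbered arrays did not deviate together (correlations of 0.019, 0.019 and 0.002), so the numbers are not taken as pairs. Median centring gave 693 probe sets and 2 wider-list genes, leaving out the dimmer 50% of probe sets gave 763 and 3, and averaging a gene's probe sets gave 2 wider-list genes. With 4 added before the log2, 1 member passed, Sgpl1. The count of members under each alternative was added after the data were seen. Some alternatives had fewer arrays or tested fewer probe sets, and what changed the calls was not tested. Dim probe sets such as those of S1pr1 and Sphk1 limit what a log2 difference can show.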

Other observations

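Some wider-pathway genes were picked out after their values were seen. Abcg2, a transporter gene that marks primitive blood cells and is linked to S1P release in other tissues, had signals of 236.9, 173.2 and 131.7 in controls and 478.3, 409.3 and 522.4 in knockouts. Its groups did not overlap, and the log2 difference of 1.33 (SE 0.23) did not pass (adjusted p = 0.0755 by limma). Over the settings tried, apart from averaging a gene's probe sets, limma's adjusted p ran from 0.0396 to 0.213. Abcg2 passed after median centring, without the dimmer 50% of probe sets and when each gene's probe sets were averaged. Klf2, a transcription factor known to drive S1pr1 in lymphocytes, had signals of 199.5, 229.9 and 73.8 in controls and 34.6, 75.8 and 52.5 in knockouts, with overlap (log2 -1.30; adjusted p = 0.239 by limma). Cd69, whose product removes S1pr1 from the cell surface, was at -0.62 and overlapped between groups. Spns3 and Mfsd2a, the closest relatives on the list of the exporter genes Spns2 and Mfsd2b, were at 0.09 (SE 0.13) and -0.26 (SE 0.16), and neither passed. Mfsd2a ran from 6.4 to 16.7 over all arrays, too dim to carry a difference.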
